A study of Mus musculus with 19 samples.

Results

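The genes described here were those of the subcortical maternal complex, a protein assembly of the oocyte, and were picked by symbol: Padi6, Ooep, Nlrp5, Tle6, Khdc3, Nlrp2, Nlrp4f and Zbed3. No cut on measured values was used, but earlier results of these data were known when they were picked. Of these 8 genes, 6 were analysed among the 14173 genes of the table. Nlrp5 and Nlrp2 were not analysed here. Polyadenylated RNA had been measured in single mouse blastocysts, with 1 library per embryo, in 9 Padi6-mutant and 10 Control embryos. Per the series' design text the mutation is the substitution P620A of Padi6, carried by the oocytes from which the Padi6-mutant embryos came, and those embryos had passed an arrest at the 2-cell stage. The labels give the reference group as Control without further genotype, and give no strain, age, litter or batch for either group, nor the genotype that the embryo itself received. Each embryo counts as 1 replicate, and a mother shared by embryos of a group would make p-values too small.

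The complex lies under the plasma membrane of the growing oocyte and of the cleaving embryo, and its proteins are made in the oocyte and handed down in the egg cytoplasm. NLRP5, OOEP, TLE6 and KHDC3 form its best known core, and PADI6 is needed for the fibrous cytoplasmic lattices that store proteins in the mouse egg. Loss of several of its genes in the mother halts mouse embryos in early cleavage, while the transcripts themselves fall as maternal RNA is cleared. A transcript of such a gene in a blastocyst may be left over from the egg or made by the embryo, and the 2 cannot be told apart in these libraries.

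Values are given as log2(scaled count + 1), where the scaled count is a read count multiplied by 1 factor per library so that the upper quartile of the listed genes is 2323 in every library. The factor could be worked out in 13 libraries, where the listed genes held 12.1 to 30.2 M counts in 8 Padi6-mutant libraries and 27.9 to 46.1 M in 5 Control libraries. The labels name a mean depth of 4.2 M reads, and the difference was not resolved. The factor could be worked out only where it enlarged the counts, so the deepest libraries may be missing from the ranges above. Between 113 and 596 genes were at 0 in Padi6-mutant libraries and between 30 and 247 in Control libraries. All 12 blastocyst lineage markers looked at were among the analysed genes, including the trophectoderm keratin Krt8 (mean level 16.9 in Padi6-mutant and 17.2 in Control embryos) and the pluripotency factor Nanog (13.4 in both groups). At a limma adjusted p under 0.05, 4 of the 12 were lower in Padi6-mutant embryos, against 12% of all genes. Among them was the pluripotency factor Pou5f1 (mean level 13.2 in Padi6-mutant and 14.5 in Control embryos). Of the defining oocyte markers Zp1, Zp2, Zp3, Gdf9 and Bmp15, and of the defining cumulus cell markers Amh, Foxl2, Inha, Fshr, Cyp19a1, Has2, Ptx3 and Tnfaip6, none was among the genes analysed here.

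Promoter windows are printed for 3 members: Ooep, the member whose transcript changed, Khdc3, another KH-domain gene of the same chromosome and the most abundant member, and Padi6, the mutated gene. They run from 250 bases before to 50 bases after the RefSeq start on build GRCm38.p6, on the gene's strand, 5′ to 3′, and capitals mark each CG, the pair of bases that DNA methylation acts on. Ooep lies at chr9:78378539-78378838 on the minus strand, Khdc3 at chr9:73102148-73102447 on the plus strand and Padi6 at chr4:140742594-140742893 on the minus strand.
Ooep: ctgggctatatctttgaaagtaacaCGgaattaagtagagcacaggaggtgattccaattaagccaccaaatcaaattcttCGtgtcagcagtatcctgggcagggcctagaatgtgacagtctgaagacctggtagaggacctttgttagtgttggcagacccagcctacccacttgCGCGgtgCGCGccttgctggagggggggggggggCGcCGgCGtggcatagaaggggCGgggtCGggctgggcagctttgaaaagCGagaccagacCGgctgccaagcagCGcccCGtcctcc
Khdc3: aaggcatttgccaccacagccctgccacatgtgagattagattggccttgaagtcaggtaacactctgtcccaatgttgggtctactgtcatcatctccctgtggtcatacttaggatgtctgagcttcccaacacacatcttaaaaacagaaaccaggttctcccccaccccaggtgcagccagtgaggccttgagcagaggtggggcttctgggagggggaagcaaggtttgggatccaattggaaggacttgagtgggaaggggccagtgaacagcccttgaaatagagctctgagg
Padi6: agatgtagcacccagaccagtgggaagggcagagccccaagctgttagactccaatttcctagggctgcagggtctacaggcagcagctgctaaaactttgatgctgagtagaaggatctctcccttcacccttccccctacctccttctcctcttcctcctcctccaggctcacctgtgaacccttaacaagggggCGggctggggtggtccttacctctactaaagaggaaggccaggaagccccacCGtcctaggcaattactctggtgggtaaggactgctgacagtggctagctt
The Ooep window held 15 CG, the Padi6 window 2 and the Khdc3 window 0. Over all 32851 RefSeq windows of this length the median was 7, with 34.6% of windows holding at least as many CG as Ooep and 5.43% holding as few as Khdc3. Tle6 had 18 in 1 of its windows (29.7% of windows held at least as many) and 3 in the other (76.7%), Nlrp4f had 2, and the 3 windows of Zbed3 had 4, 15 and 8. The letters TAATTG, the core recognised by the oocyte homeodomain factor NOBOX, stood on either strand in the Padi6 and Ooep windows, 2 of 12 windows of the complex genes, against 8% of all windows. CANNTG, the general E-box that FIGLA among many factors binds, stood in 11 of the 12 windows and in 72.3% of all windows. A match describes these letters and is not a shown binding site.

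Of the 6 transcripts, 1 was higher in Padi6-mutant embryos and 0 were lower at a limma adjusted p under 0.05 (Benjamini-Hochberg over all genes). The background was 26.6% of all genes, 14.6% higher and 12% lower. The one that rose was Ooep, by 1.93 on the log2 scale. Khdc3 and Zbed3 had lower means that did not pass after adjustment, and Tle6, Nlrp4f and Padi6 itself did not pass either. The median log2 fold change was -0.27 over the 6 members and -0.10 over all genes. Before adjustment 3 members had p under 0.05, against 38.5% of all genes. Groups of embryos that did not overlap occurred in 0 members, against 2.96% of all genes.

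Padi6 encodes a member of the peptidylarginine deiminase family that is made in oocytes. Its level ran over 2.00, 6.48 and 9.27 (lowest, median, highest) in Padi6-mutant embryos, against 3.81, 6.48 and 9.24 in Control embryos. The groups lay over each other, with 5 of 9 Padi6-mutant embryos above the Control median and 4 below it. The log2 fold change was -0.04 with a 95% interval of -1.65 to 1.57 (limma adjusted p = 0.976), with a mean of 6.49 ± 2.16 over 9 Padi6-mutant and 6.53 ± 1.503 over 10 Control embryos (SD). That interval leaves room for differences of either sign. A single substitution need not change the level of a transcript, and counts per gene do not read it, so these values do not check the genotype labels. Padi6 was also among the more variable genes, with an SD above that of 88.9% of genes in Padi6-mutant and 87.3% in Control embryos. Padi6-mutant 7 was lowest at 2.00, and its sign turned in 8 of the 19 fits that left out an embryo, so no direction is read.

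**Figure D1:**
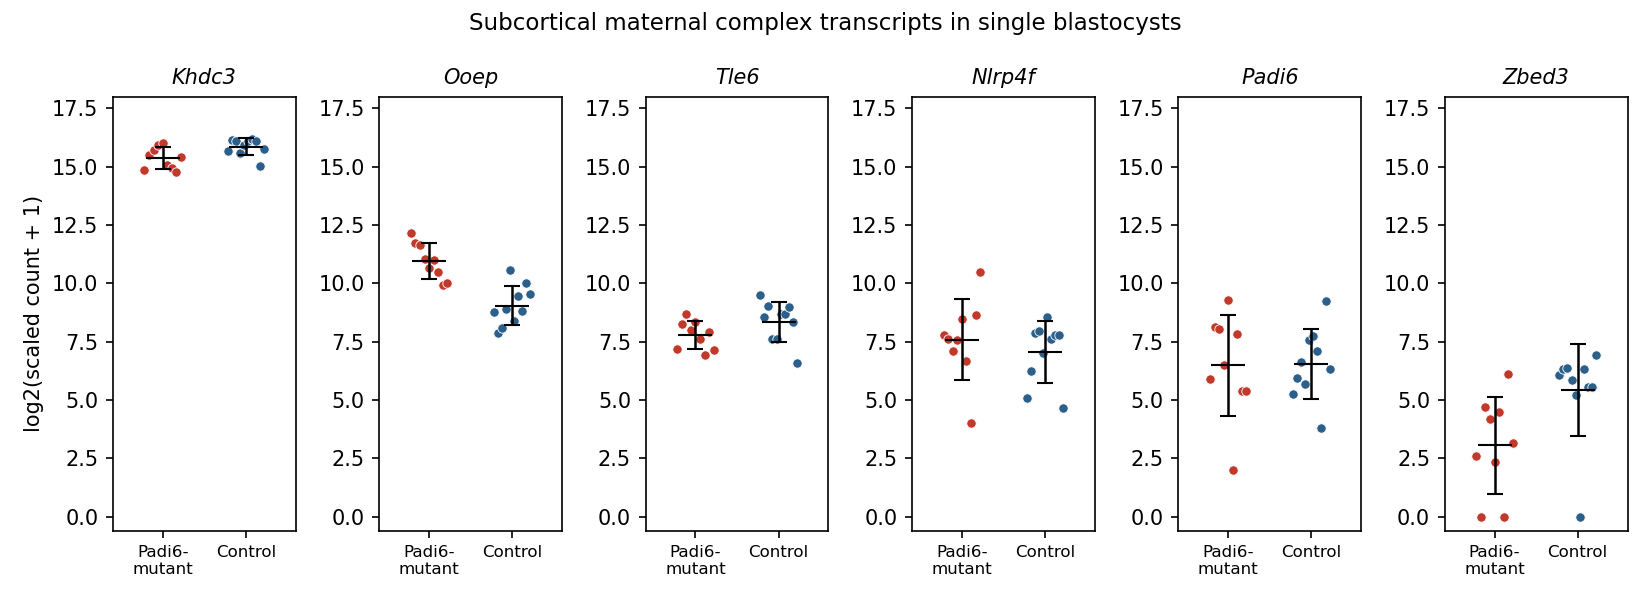
Levels of the 6 complex transcripts, log2(scaled count + 1), in each of 9 Padi6-mutant embryos (left, red) and 10 Control embryos (right, blue). Points are embryos, horizontal marks the group means and bars the SD. Ooep lies at 10.96 ± 0.77 in Padi6-mutant and 9.04 ± 0.84 in Control embryos with some overlap, Khdc3 is the highest transcript in every embryo, and Zbed3 is at 0 in 2 Padi6-mutant and 1 Control embryo.

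Ooep, also called FLOPED, encodes a small protein with an atypical KH domain that sits in the core with TLE6 and NLRP5. Its level ran over 9.93, 11.0 and 12.2 (lowest, median, highest) in Padi6-mutant embryos, against 7.88, 8.86 and 10.54 in Control embryos. All 9 Padi6-mutant embryos lay above the Control median, and 6 of 9 lay above every Control embryo. Ooep was 3.80-fold higher in Padi6-mutant embryos (log2 fold change 1.93, SE 0.34, 95% interval 1.21 to 2.64, limma adjusted p = 2.35e-04; exact two-sided permutation p = 2.27e-04 over all 92378 splits of the embryos). By size of rise it stood at rank 762 of 14173 genes. By mean level it stood above 72.6% of genes in Padi6-mutant embryos and above 45.3% in Control embryos. Before scaling, by the factors worked out above, it had 374 to 1809 counts (median 943) in 8 Padi6-mutant libraries and 238 to 1399 (median 465) in 5 Control libraries. Total counts ran higher in those Control libraries, with some overlap, and their difference from the labelled depth was not resolved.

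Khdc3, also called FILIA, encodes a KH-domain protein that joins the complex and is known in mouse for its part in genome stability. It was by far the most abundant member, with a mean above 99.2% of genes in Padi6-mutant and 99.8% in Control embryos. Its level ran over 14.8, 15.4 and 16.01 (lowest, median, highest) in Padi6-mutant embryos, against 15.02, 16.003 and 16.2 in Control embryos. The groups overlapped over most of that range, though 8 of 9 Padi6-mutant embryos lay below the Control median. The log2 fold change was -0.50 (SE 0.20, 95% interval -0.91 to -0.10), which did not pass (limma adjusted p = 0.0589; unadjusted exact permutation p = 0.0197). Khdc3 varied little between Control embryos, with an SD of 0.36, above that of 11.8% of genes. Control 9 was the lowest Control embryo at 15.02, and without it the value was -0.60 and passed (adjusted p = 0.0166).

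Tle6 encodes a corepressor-like protein of the Groucho family that binds OOEP and NLRP5 in the core. Its level ran over 6.91, 7.89 and 8.66 (lowest, median, highest) in Padi6-mutant embryos, against 6.58, 8.61 and 9.496 in Control embryos. No Padi6-mutant embryo lay outside the Control range, and 5 of 10 Control embryos lay above every Padi6-mutant embryo. The log2 fold change of -0.58 (SE 0.35, 95% interval -1.31 to 0.16) did not pass (limma adjusted p = 0.240). Tle6 overlaps Tle2 and Gm32024 in the RefSeq annotation, and whether the counting used strand is not given in the sources used here, so its reads may be shared with those genes.

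Nlrp4f belongs to the NLR family and binds the core proteins in mouse oocytes, where it takes part in the cytoplasmic lattices. Its level ran over 4, 7.62 and 10.48 (lowest, median, highest) in Padi6-mutant embryos, against 4.64, 7.695 and 8.57 in Control embryos. Padi6-mutant 10 was the highest of all embryos and Padi6-mutant 8 the lowest, so the mutant embryos spanned the Control range on both sides. The log2 fold change of 0.53 (95% interval -0.80 to 1.87) did not pass (limma adjusted p = 0.572). It moved to 0.17 without Padi6-mutant 10 and to 0.98 without Padi6-mutant 8, and passed in neither fit. Nlrp4f has near relatives in the same family, and its reads may be split with them.

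Zbed3 encodes a zinc-finger protein that binds the complex and is known in mouse oocytes for its part in the distribution of organelles. It overlaps Snora47 and LOC115485922 in the RefSeq annotation. Its level ran over 0, 3.17 and 6.09 (lowest, median, highest) in Padi6-mutant embryos, against 0, 5.95 and 6.93 in Control embryos. In Padi6-mutant embryos 3 and 8 and in Control embryo 6 it was listed at 0, and 8 of 9 Padi6-mutant embryos lay below the Control median. The log2 fold change was -2.36 (SE 0.91, 95% interval -4.24 to -0.48) and did not pass (limma adjusted p = 0.0570; unadjusted exact permutation p = 0.0222). The depth behind it was small. It had 0 to 49 counts before scaling (median 3) in 8 Padi6-mutant libraries and 0 to 75 (median 34) in 5 Control libraries, whose totals also ran higher with some overlap. Without Control 6 the value was -2.96 and passed (adjusted p = 0.00614), as it did without Padi6-mutant 9 (-2.74, adjusted p = 0.0298).

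Per kilobase of transcript, the order of the members by median scaled count was the same in both groups, namely Khdc3, Ooep, Tle6, Nlrp4f, Padi6 and Zbed3. Khdc3 stood at 25762 in Padi6-mutant and 39140 in Control embryos, and Ooep at 964 in Padi6-mutant and 217 in Control embryos. On this scale Ooep was above Tle6 in 9 of 9 Padi6-mutant embryos and in 5 of 10 Control embryos. Tle6 stood at 118 per kilobase in Padi6-mutant and 193 in Control embryos. Neighbours further down could not be ordered: Nlrp4f (55.6 in Padi6-mutant, 58.5 in Control) was above Padi6 (37.7 in Padi6-mutant, 37.9 in Control) in 5 of 9 Padi6-mutant and 4 of 10 Control embryos. Zbed3 was last with 4.22 in Padi6-mutant and 32.2 in Control embryos, below Padi6 in 7 of 9 Padi6-mutant and 4 of 10 Control embryos. Per kilobase of coding sequence Ooep was above Tle6 in 9 of 9 Padi6-mutant and 10 of 10 Control embryos, so the contrast between these genes rests on the length taken for Ooep. On that scale the order also changed in Control embryos, where Zbed3 (89.2) then came before Nlrp4f (73.5) and Padi6 (43.3). In these bulk embryo libraries fewer cells with a transcript and less of it per cell cannot be told apart.

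Ooep was called in all 11 other settings and in all 19 fits that left out 1 embryo, over a range of 1.78 to 2.09 in the latter. Its size depended on which length was used to remove the trend on length and GC content from each library. With the GENCODE M21 transcript length of 2138 nt the value was 1.93 (limma adjusted p = 3.13e-04), and with the coding length of 492 nt it was 1.00 (adjusted p = 0.00718). Which of these lengths describes the Ooep molecules in the libraries was not tested. Among Padi6-mutant embryos Ooep was 9.93 to 10.7 in the 4 libraries with over 400 genes at 0 and 11.0 to 12.2 in the other 5. Without those 4 libraries the log2 fold change was 2.48, and with the number of genes at 0 as a covariate it was 2.26. Within Padi6-mutant embryos Ooep fell with the number of genes at 0 (Pearson's r = -0.73, exact permutation p = 0.0328; Spearman's rho = -0.58), which did not pass over the 12 relations computed (adjusted p = 0.197). Within Control embryos the sign was the other way and did not pass either (r = 0.49, permutation p = 0.152, rho = 0.65 with adjusted p = 0.293). The other relation with an unadjusted p of r under 0.05 was that of Khdc3 in Control embryos (r = -0.72, permutation p = 0.0184, adjusted p = 0.197). It was 0.006 without the 2 farthest embryos. The share of all genes with as large an r was not computed.

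**Figure D2:**
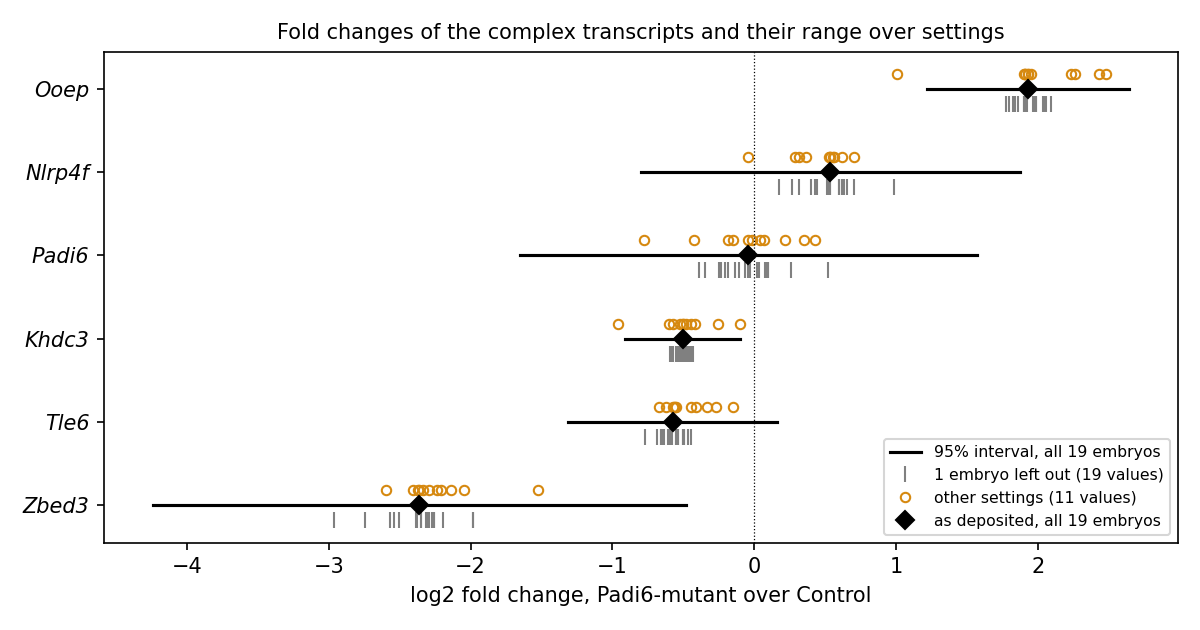
Log2 fold changes, Padi6-mutant over Control, of the 6 complex transcripts. Diamonds are the values as reported with their 95% intervals, grey ticks the 19 fits that left out 1 embryo and open circles the 11 other settings. Ooep stays above 0 throughout, with its lowest value of 1.00 after removal of the coding length trend, while Padi6 and Nlrp4f values lie on both sides of 0.

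The trend of each library on transcript length was followed because it differed between the groups. For each library, transcript length was ranked across genes against how far the library stood from each gene's mean. The resulting Spearman's rho averaged -0.25 ± 0.12 over 9 Padi6-mutant libraries and 0.17 ± 0.18 over 10 Control libraries (SD). The more negative the value, the more short transcripts stand out. Padi6 followed it within Control embryos, with the highest Padi6 levels in Control 9 (9.24), Control 6 (7.74) and Control 5 (7.58). There Pearson's r was -0.89 (permutation p = 2.30e-04, adjusted p = 0.00276 over 12 relations) and Spearman's rho -0.92 (adjusted p = 0.00540), and r was -0.86 without the 2 embryos farthest from the median trend. As large an r in size was reached by 4.49% of all genes in Control embryos. In Padi6-mutant embryos r was -0.61 and did not pass (exact permutation p = 0.0733, adjusted p = 0.220). For Ooep r was -0.75 in Padi6-mutant embryos (exact permutation p = 0.0243, adjusted p = 0.118; rho = -0.83, adjusted p = 0.0496; r = -0.60 without the 2 farthest). In Control embryos r for Ooep was -0.69 (permutation p = 0.0295, adjusted p = 0.118), and -0.14 without the 2 farthest embryos, so that relation rests on those embryos. As large an r in size as that of Ooep was reached by 10.3% of all genes in Padi6-mutant and 17.96% in Control embryos. Where the libraries of both groups met on this scale, between -0.13 and -0.09, Ooep stood at 11.0, 10.01 and 9.93 in Padi6-mutant 7, 10 and 9 and at 10.54 and 9.99 in Control 5 and 9. Ooep levels of the groups overlapped there, and the 6 Padi6-mutant libraries with more negative values had no Control library beside them. The part of the length trend in the Ooep rise was not tested beyond the trend removals above, and this relation was chosen after the values were seen.

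**Figure D3:**
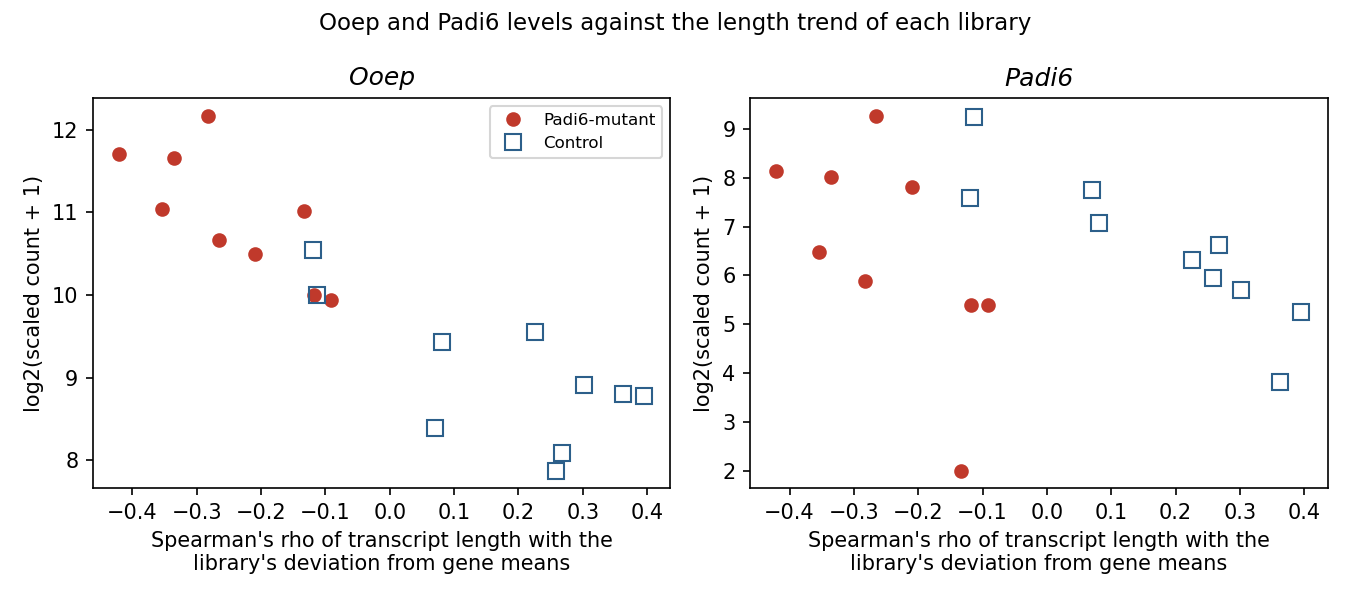
Levels of Ooep (left) and Padi6 (right), log2(scaled count + 1), against the length trend of each library, given as Spearman's rho across genes between transcript length and the library's distance from gene means. Filled red circles are 9 Padi6-mutant embryos and open blue squares 10 Control embryos. Within Control embryos Padi6 falls as rho rises (r = -0.89), and the 2 Control embryos with negative rho, 5 and 9, hold the highest Ooep levels of their group.

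Members were also compared with each other within each group, to see whether they vary together between embryos. Of 30 pairs of members, 15 in each group, 0 had an unadjusted p of Pearson's r under 0.05, and the smallest adjusted p was 0.816 for r and 0.717 for rho. The highest r was 0.66, between Tle6 and Khdc3 in Padi6-mutant embryos (exact permutation p = 0.0615). With 9 or 10 embryos weaker relations would not have been detected.

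The genes with the pattern most like each member over the 19 embryos, after each group was set to its own mean, are given as a description among 12222 genes above 0 in every embryo. Closest to Ooep were Cox16, a cytochrome c oxidase assembly factor (r = 0.88), Bola3, an iron-sulphur cluster factor of mitochondria (r = 0.88), and Gm6166 (r = 0.86). Closest to Padi6 were Stmn3 (r = 0.84), Ly6f (r = 0.84) and Coa4, another oxidase assembly factor (r = 0.84). Tle6 came nearest to Maf1, a repressor of RNA polymerase III (r = 0.83), Dedd2 (r = 0.79) and Dalrd3 (r = 0.77), and Khdc3 nearest to Spryd4 (r = 0.88), Rundc1 (r = 0.87) and Parvb (r = 0.85). The nearest to Nlrp4f were Nif3l1 (r = 0.81), Echdc3 (r = 0.74) and Dffa (r = 0.73), and to Zbed3 they were Sash1 (r = 0.83), Cep128 (r = 0.79) and Mitf (r = 0.78). The values share libraries and the highest of many r are chosen, so these figures carry no p. Of the genes nearest to Ooep, Cox16 and Bola3 were themselves higher in Padi6-mutant embryos (2.13 and 2.06, limma adjusted p = 7.35e-05 and 2.16e-06), while Gm6166 did not pass (adjusted p = 0.0779). Elsewhere among these genes Coa4 was higher (1.59, limma adjusted p = 0.00138), and Dedd2 (-0.79, adjusted p = 0.0174) and Rundc1 (-1.001, adjusted p = 0.0187) were lower.

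Genes next to a member, 3 on each side in RefSeq order, included called ones around every member, against 26.6% called over all genes. Of 6 neighbours each, 2 rose and 0 fell in Padi6-mutant embryos around Ooep, 2 rose and 1 fell around Khdc3, 1 rose and 1 fell around Nlrp4f, and 1 rose and 0 fell around both Tle6 and Padi6. Dppa5a, next to Ooep and a KH-domain gene of pluripotent cells, rose by 2.096 (limma adjusted p = 1.67e-05), with a mean of 17.5 in Padi6-mutant and 15.5 in Control embryos. Gsta1, a glutathione transferase, rose by 3.26 (limma adjusted p = 1.19e-05) and was called in all 10 other settings that tested it. On the other side Ddx43 (1.00, adjusted p = 0.106), Mto1 (-0.24) and the elongation factor Eef1a1 (-0.32, adjusted p = 0.173) did not pass. Gsta2 (2.04, adjusted p = 0.0811) is close in sequence to Gsta1, and Dppa5a has near copies in the genome, so reads of both may be shared. Around Zbed3, 1 gene rose and 3 fell. They were the tubulin cofactor Tbca (2.88), and Pde8b (-3.52, adjusted p = 0.00713), Iqgap2 (-2.37, adjusted p = 0.0201) and Aggf1 (-0.50, adjusted p = 0.0126). Around Padi6, Sdhb, a subunit of respiratory complex II, rose (1.16, limma adjusted p = 1.62e-04), and the family member Padi4 did not pass (-1.96, adjusted p = 0.177). The neighbours Gsta1, Sdhb, Tbca, Pde8b, Iqgap2 and Aggf1 were named after their values were seen.

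Of the 18 analysed relatives of the members by family, 4 were higher and 3 lower in Padi6-mutant embryos, with 11 not called and a median log2 fold change of -0.13, against 14.6% higher and 12% lower over all genes. Whether relatives and members differ in this was not tested. The KH-domain relatives held 3 of the 4 rises. Dppa5a lay at 17.0 to 18.2 in Padi6-mutant embryos and at 14.2 to 16.9 in Control embryos, without overlap, and stood at 0.75 (limma adjusted p = 0.00135) with the length trend removed. Khdc1c, of the Khdc1 cluster expressed in oocytes, was higher by 1.59 (limma adjusted p = 0.00303), with a median of 11.7 in Padi6-mutant and 10.3 in Control embryos. Its call ended after removal of the coding length trend (0.62, adjusted p = 0.122) and with the number of genes at 0 as a covariate (1.08, adjusted p = 0.105). Khdc4, a splicing factor with KH domains, was higher by 0.92 (limma adjusted p = 6.46e-04) and was called in all 11 other settings. Khdc1a and Khdc1b, from the same cluster as Khdc1c, did not pass.

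In the NLR family the called genes lay on the other side. Nlrp9b was lower in Padi6-mutant embryos (log2 fold change -4.16, limma adjusted p = 2.22e-04), at 0 in 5 of 9 Padi6-mutant embryos and in 0 of 10 Control embryos, with a median of 0 in Padi6-mutant and 5.15 in Control embryos. Of the 9 Padi6-mutant embryos 8 lay below every Control embryo. Its size depended on the pseudocount, and stood at -2.02 with a pseudocount of 10. Nlrp4c, a relative of Nlrp4f, had a median of 10.7 in Padi6-mutant and 11.9 in Control embryos and was lower (log2 fold change -1.26, limma adjusted p = 0.0130). Both stayed called in all other settings that tested them, with a highest adjusted p of 0.0148 for Nlrp9b and 0.0492 for Nlrp4c. Nlrp12 and Nlrx1 did not pass. Both families hold near-identical copies, among them Nlrp9a and Nlrp9c for Nlrp9b, and the counting may have split reads between copies. Outside these families Zbed5 was higher (1.45, limma adjusted p = 0.0332) and Tle1 lower (-0.84, adjusted p = 0.0305), with calls that held in 7 of 10 other settings for Zbed5 and 6 of 10 for Tle1, and in 11 and 12 of the 19 left-out fits. Nlrp4c, Zbed5 and Tle1 were named after their values were seen.

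**Figure D4:**
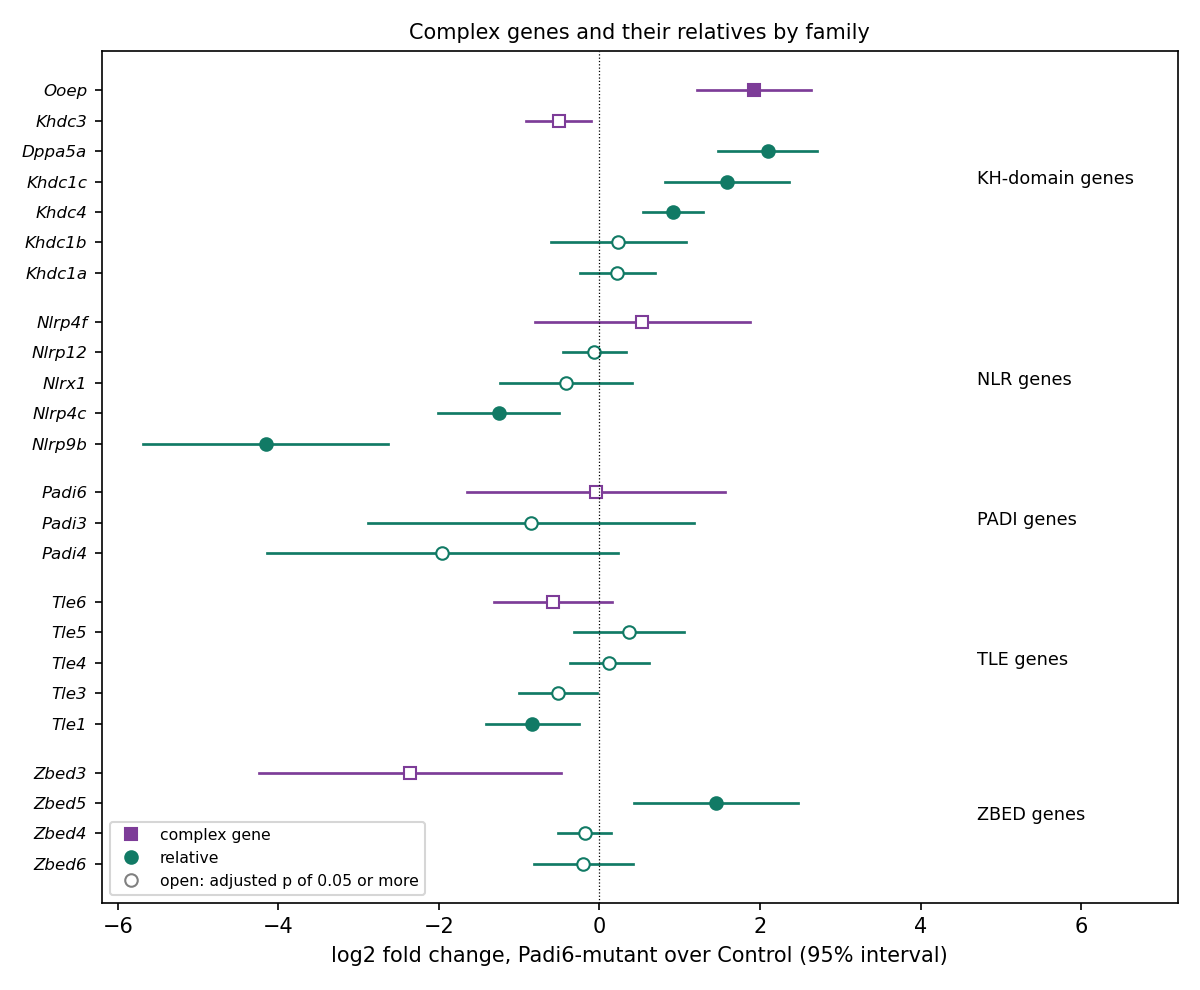
Log2 fold changes, Padi6-mutant over Control, with 95% intervals, of the complex genes (squares) and their relatives (circles) by family. Filled marks passed a limma adjusted p of 0.05. Ooep, Dppa5a, Khdc1c and Khdc4 are filled to the right of 0, and Nlrp9b and Nlrp4c to the left.

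Partners of the complex and of the lattices were listed from textbook knowledge as tubulins, proteins of the Ywha family, cofilins and ubiquitin factors. Of 20 analysed, 1 was higher, 1 lower and 18 not called, with a median of -0.19, against 14.6% higher and 12% lower over all genes. Skp1, a subunit of SCF ubiquitin ligases, was higher by 1.02 (limma adjusted p = 0.0127), a call that held in 6 of 9 other settings. Uhrf1, which reads hemimethylated DNA and is bound in the oocyte cytoplasm, was lower (-0.81, adjusted p = 0.0291). Its call ended in 5 of 11 other settings and in 6 of 19 fits that left out an embryo, those without Control 1, 2, 7 or 10 or Padi6-mutant 4 or 6. Over the other settings 0 to 2 partners were higher and 0 to 9 lower. Over all genes tested in those settings, 1211 to 2660 were higher and 499 to 2689 lower. These ranges do not run together. The 9 lower partners came with the coding length trend removed, where 1203 of 10982 genes were lower. Under quantile normalization 7 partners and 1946 genes were lower, and with array weights 4 partners and 2689 genes.

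Transcripts of other kinds are set beside the members, against 14.6% higher and 12% lower over all genes. Of the 41 oocyte transcripts listed outside the complex, 7 were analysed, of which 1 was higher and 0 were lower. That was Dppa3, which guards maternal methylation (1.12, limma adjusted p = 0.0243; median 17.3 in Padi6-mutant and 15.6 in Control embryos). Its call held in 6 of 11 other settings and ended without Control 1 (adjusted p = 0.0504), and its value was near 0 with the length trend removed. The summed log2 level of those 7 genes was 49.7 to 66.6 in Padi6-mutant and 57.5 to 67.2 in Control embryos. Of 21 genes of the 2-cell stage 3 were analysed and 0 were called, with Arg2 at 1.36 (adjusted p = 0.139) and Sp110 at 0.48 (adjusted p = 0.458). Arg2 stood at 0.89 without Padi6-mutant 10, and passed without Padi6-mutant 9 (1.74, limma adjusted p = 0.0469). Of 16 cumulus and granulosa markers 4 were analysed and 0 were called, with summed levels of 26.4 to 33.7 in Padi6-mutant and 29.0 to 35.2 in Control embryos. Nr5a2 (-0.09) and Amhr2 (0.86, adjusted p = 0.203) were the most abundant of them with Star, and Nr5a2 is also made by blastocysts. Of 12 lineage markers 0 were higher and 4 lower, with summed levels of 136.7 to 157.2 in Padi6-mutant and 147.2 to 163.05 in Control embryos. The lower ones were Pou5f1 (-1.26, limma adjusted p = 0.00158), Gata6 (-0.59, adjusted p = 0.0233), Pdgfra (-2.51, adjusted p = 0.0282) and Sox17 (-3.37, adjusted p = 0.0393). Those calls held in 10 of 11 other settings for Pou5f1, 9 of 11 for Pdgfra, 6 of 11 for Gata6 and 6 of 10 for Sox17. Over the other settings 0 to 5 lineage markers were lower. The count was 0 with genes at 0 as a covariate, where 499 of all genes were lower against 1697 as reported. With the length trend removed it was 1. Of the 19 left-out fits the Sox17 call held in 8, with adjusted p up to 0.0781, and the Pdgfra call in 18, ending without Padi6-mutant 9 (adjusted p = 0.0512), with a value of -1.61 without Padi6-mutant 10. The part of these lists in the values of the complex genes was not tested.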

How the data were processed

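Single mouse blastocysts, 9 Padi6-mutant and 10 Control by the genotype in the labels, were measured by RNA-seq with 1 library per embryo. Per the labels' protocols, RNA and DNA were separated, cDNA was amplified by template switching with 17 PCR cycles, and 20 libraries were pooled, of which 19 were analysed here. Per the submitters' processing notes, the tools were Trim Galore 0.4.4 and HISAT2 2.1.0 and the builds mm39 and GRCm39; the counting tool and annotation are not given in the sources used here. The authors deposited log2 values of 14173 genes. Undoing the logarithm gave whole numbers to within 1.96e-07, which were taken as scaled counts plus 1. All analysed genes were above 0 in at least 9 libraries, so genes seen in few embryos are not covered here.

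Groups were compared with limma 3.58.1 in R 4.3.3 (two-sided, trend, all 19 embryos, no covariate) on the deposited log2 values of all genes, and p-values were adjusted by Benjamini-Hochberg over the whole table (threshold 0.05). The scripts were tested on simulated data. Members, lists and tests were chosen with earlier results of these data known. Named genes were all members, from each list up to 4 called genes by smallest adjusted p (or up to 2 by highest mean if none was called), and the 3 genes most like each member. Relations over embryos used exact permutations with 9 embryos and 100000 resamples with 10. Lengths came from GENCODE M21 by symbol, with a transcript length for 13357 genes and a coding length for 10982, and trends were removed by lowess with a span of 0.3. Promoters came from RefSeq on GRCm38.p6, with windows for all 8 members, an older build than that of the notes. The p-values cover the spread between embryos; intervals cover the same, and the depth is unknown in 6 libraries. The other settings were a replicate block, quantile normalization, median centring, a pseudocount of 10 in place of 1, genes above the median level, genes at 0 as a covariate, array weights, left-out libraries and the 2 length trends. All members were kept among the genes above the median level whatever their own level. Padi6, Tle6, Nlrp4f and Zbed3 lay below the median. The coding length trend and the fit without Control 5 and 9 were chosen after seeing the data.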

Additional observations from a re-analysis of the deposited data

Results flagged for a closer look

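In groups of 9 or 10 embryos, the highest or lowest value was set against its nearest neighbour by Dixon's test at the 95% level. Over 42 groups of values 4 held an embryo that stood apart, and chance flags about 1 in 20 groups. Zbed3 in Control 6 was at 0, while the other Control embryos lay at 5.21 or more. Uhrf1, a partner of the complex, stood at 11.1 in Padi6-mutant 6. Of the lineage markers, Pdgfra stood at 2.32 in Padi6-mutant 10 and Sox17 at 4.09 in Control 9. No cause was tested for these values.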

How the results depend on the processing

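As reported, 1 of the 6 complex transcripts and 3765 genes were called. Ooep was called in each of the 11 other settings and the 19 fits that left out an embryo, and Tle6, Nlrp4f and Padi6 in none of them. The number of complex transcripts called was 3 with array weights and 2 over genes above the median level, with a pseudocount of 10, under quantile normalization and without Control 5 and 9; it was 1 to 2 over the fits that left out an embryo, 2 without Control 6 or 9 or Padi6-mutant 5, 6 or 9. The additions were Khdc3 with array weights (-0.57, limma adjusted p = 0.0130), over the genes above median level (adjusted p = 0.0462), under quantile normalization (-0.96, adjusted p = 8.85e-04) and without Control 5 and 9 (-0.60, adjusted p = 0.0180), and Zbed3 with array weights (adjusted p = 0.0286) and a pseudocount of 10 (-1.52, adjusted p = 0.0164). Khdc3 stood at -0.26 (adjusted p = 0.326) with the length trend removed and at -0.10 (adjusted p = 0.737) with the coding length trend removed. The number of genes called was 2414 with the coding length trend removed, over fewer genes, 1807 with genes at 0 as a covariate (1308 higher, 499 lower, against 2068 and 1697 as reported), 5349 with array weights, 4717 without Control 5 and 9 and 3035 to 4288 over the left-out fits. It was 2573 over the genes above the median level, again over fewer genes, 3915 with a pseudocount of 10 and 3963 under quantile normalization. Signs turned for Padi6 with array weights (0.0415), the coding length trend (0.35), the length trend (0.22), a pseudocount of 10 (0.0687) and without Control 5 and 9 (0.43), with -0.39 to 0.52 over the left-out fits. Signs also turned for Nlrp4f with genes at 0 as a covariate (-0.0470), for Dppa3 with the length trend removed (-0.00792) and for Nr5a2 with array weights (0.0445) and the coding length trend (0.14); none of these was past the threshold there. The cause was not tested.

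The labels number the embryos, and numbers 2 to 10 occur in both groups. The correlation of same-numbered embryos' deviations was -0.07 to 0.15, over 0.1 in 1 of 9 pairs, and 1 of 9 Padi6-mutant embryos correlated best with its own number. Whether same-numbered embryos shared a batch or litter cannot be read from these values and was not tested. With the replicate block 1 complex transcript, Ooep (1.90, adjusted p = 0.00550), and 2528 genes were called.

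Depth limits Zbed3 most, at a median of 3 counts before scaling in 8 Padi6-mutant libraries, and its call turned with 1 embryo. Padi6, Nlrp4f and Tle6 varied between embryos, by SD, more than their group means differed.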
